A study of Mus musculus with 6 samples.

Results

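The synaptotagmins are a family of vesicle and membrane proteins that carry a pair of C2 domains, and the gene of each is named Syt with a number. In many members the C2 domains bind calcium, and the protein then helps the SNARE proteins to fuse a vesicle with its target membrane. Best known from neurons and endocrine cells, the family also acts in macrophages and osteoclasts, which release enzymes from lysosomes. Synaptotagmin VII (Syt7) is a calcium sensor of lysosome exocytosis and has a role in secretion by mouse osteoclasts. Synaptotagmin V (Syt5) is a calcium sensor of dense-core vesicles in neuroendocrine cells and takes part in phagocytosis by macrophages.

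Described here are 10 synaptotagmin genes, Syt1, Syt3, Syt4, Syt5, Syt6, Syt7, Syt8, Syt9, Syt11 and Syt12, of 17 synaptotagmins and 19930 genes that the arrays measured. They were measured on 3 arrays of H10 cells and 3 arrays of C8 cells. Both lines came from RAW264.7 mouse macrophages that carried Lifeact-mEGFP and puromycin resistance from a retroviral vector, and both had grown for 2 days with 60 ng/mL of sRANKL, the cytokine that starts osteoclastogenesis (OCG). H10 is the line that fuses into osteoclasts and C8 the line that does not. Each phenotype rests on 1 clonal line, so a difference between H10 and C8 cannot be told apart from other differences between 2 clones. No source used here states if each array had its own culture. The p-values thus set each difference only against the spread of arrays within both lines, and this spread may be technical.

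The features that stand for the genes were chosen by the mean log2 value over the 6 arrays, the brightest feature of a gene being taken. Each of the 10 genes had 1 feature, so this choice set nothing aside. The family itself was taken up when the high value of Syt5 in H10 cells was already known. The difference of Syt5 is therefore given as a description, without a p-value. The interval of Syt5, its rank by size and its spread beside other called genes are also given as description. They rest on the value for which Syt5 was chosen, so they are no independent evidence of a difference. All values are log2 values from RMA, the normalization that the authors applied, and a difference of 1 is a 2-fold change. Differences are H10 minus C8. Levels of different genes are not set against one another one by one, since each has its own probes. Array medians serve only as a rough mark between bright and dim features.

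Of 8 macrophage markers, 7 to 8 lay above the median of the array in H10 cells and 6 to 7 in C8 cells. The bright ones included Cd68 and Csf1r, with log2 values of 13.53 to 13.69 and 13.22 to 13.26 in H10 cells, and 13.56 to 13.62 and 13.30 to 13.36 in C8 cells. Only 2 of the 8 were at or under the median on some arrays, Fcgr1, which averaged 7.76 ± 0.24 in H10 cells and 7.20 ± 0.19 in C8 cells, and Adgre1, which averaged 9.58 ± 0.17 in H10 cells and 7.56 ± 0.16 in C8 cells (SD, n = 3 each). Of the 8, only Adgre1 was called by limma, higher in H10 cells by 2.02 (adjusted p = 0.00114). At an unadjusted p under 0.05 the counts were 4 higher and 0 lower, against 6.1% and 7.67% of all genes. Of 11 osteoclast markers, 6 were called higher in H10 cells and 0 lower, while 1.85% of all genes were called higher and 1.04% lower. The 6 were Acp5, Ctsk, Oscar, Dcstamp, Ocstamp and Atp6v0d2. The other 5 were not called. Of these, Mmp9 had a difference of -0.34 (adjusted p = 0.534 from limma), and Itgb3, Calcr, Nfatc1 and Tnfrsf11a had 0.06 to 0.26. The study named Ctsk, Oscar, Dcstamp and Ocstamp from these arrays. The list was chosen with that known, so its count is not independent evidence. The count of 6 was 3 without H10 replicate 3 or C8 replicate 3 and 4 without H10 replicate 1, H10 replicate 2 or C8 replicate 2. Calcr, the calcitonin receptor of mature osteoclasts, had 6.90 to 6.96 in H10 cells and 6.79 to 6.91 in C8 cells, under the median of each array. Of 12 markers of neurons and neuroendocrine cells, where synaptotagmins abound, 0 were called in limma in either direction, and 0 had an unadjusted p under 0.05. Their summed linear values were 1910 to 1940 in H10 cells and 1930 to 2040 in C8 cells.

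Syt5 stood apart in the family. Its log2 values were 10.18, 10.17 and 10.21 on the H10 arrays, against 7.18, 7.35 and 7.50 on the C8 arrays. The lowest H10 array lay far above the highest C8 array, and the groups did not overlap. The mean was 10.19 ± 0.02 in H10 cells and 7.34 ± 0.16 in C8 cells (SD, n = 3 each), a difference of 2.84 (standard error 0.09, 95% interval 2.63 to 3.06) or 7.18-fold. By size it was the 15th largest rise among the 19930 genes, a rank given as description only, since Syt5 was chosen for this rise. In C8 cells Syt5 lay under the median of each array (7.65 to 7.74). Background was not measured, and the size of the fold is uncertain for that reason. Leaving out each array in turn gave differences of 2.76 to 2.92.

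**Figure D1:**
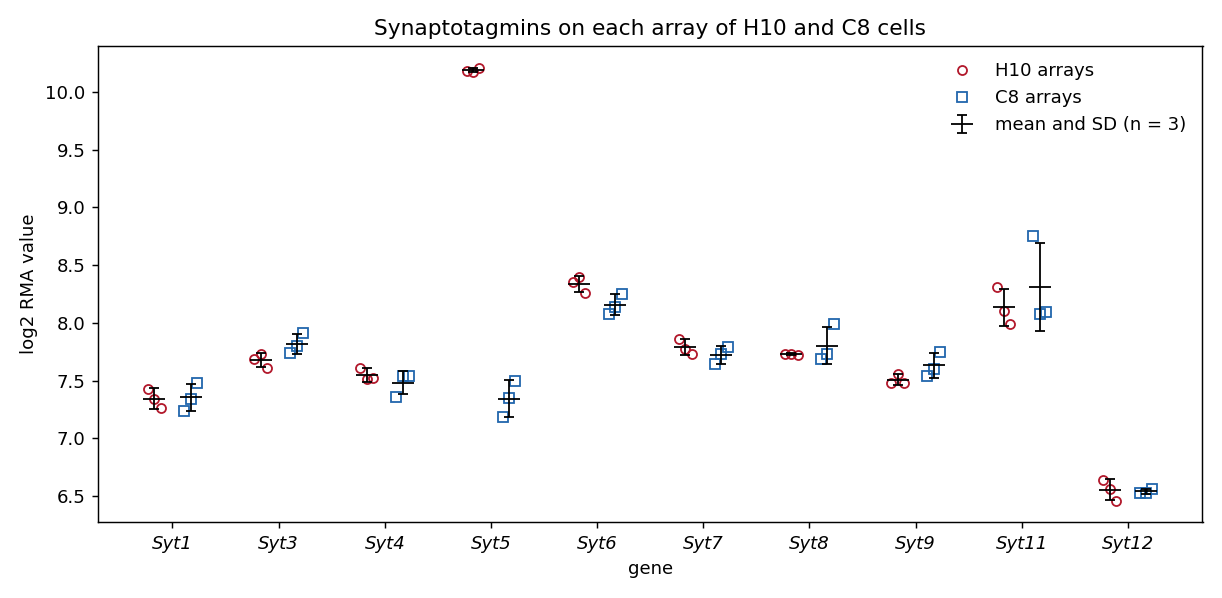
Log2 RMA values of the 10 synaptotagmins on each array of H10 cells (circles) and C8 cells (squares), with bars for mean and SD per line (n = 3). Syt5 lies at 10.17 to 10.21 in H10 cells and at 7.18 to 7.50 in C8 cells, and the other 9 genes differ little between the lines.

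The 3 H10 arrays were close to one another for Syt5, with a range of 0.04. The C8 arrays spread more, with an SD of 0.16 against 0.02 in H10 cells. Over both lines the pooled SD of Syt5 was 0.11, beside a median of 0.10 over all genes. Among the 41 genes called higher by limma with a fold of at least 5, Syt5 had the smallest range over the H10 arrays, where the median range was 0.58 and the largest 1.91. In 32 of these 41 genes H10 replicate 1 was the lowest H10 array. In Syt5 it was not, the lowest being replicate 2 by 0.01, which is the last digit of the deposited values.

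Syt7, the lysosomal synaptotagmin with a known role in osteoclasts, did not show such a difference. Its log2 values were 7.86, 7.77 and 7.73 in H10 cells, against 7.64, 7.73 and 7.79 in C8 cells. The groups overlapped, since C8 replicate 3 lay above 2 of the H10 arrays. The difference was 0.07 (standard error 0.07, adjusted p = 0.832 from limma), with a 95% interval of -0.10 to 0.23. A difference of 0.23, the upper bound, is far under 1, the size of a 2-fold change. The 6 values of Syt7 lay close to the medians of the arrays, and RMA values of dim features can understate a change.

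Among the other members that sense calcium in neurons, Syt1, the fast sensor of neurotransmitter release, had log2 values of 7.43, 7.34 and 7.26 in H10 cells, against 7.24, 7.34 and 7.48 in C8 cells. The groups overlapped fully, with a difference of -0.01 (standard error 0.09, adjusted p = 0.985 from limma). Syt9, another sensor of fast release, had 7.48, 7.56 and 7.48 in H10 cells, against 7.54, 7.60 and 7.75 in C8 cells. Only H10 replicate 2 reached into the C8 range, and the difference was -0.12 (standard error 0.08, adjusted p = 0.645). Syt3, a sensor with high calcium affinity, had 7.69, 7.73 and 7.61 in H10 cells, against 7.74, 7.80 and 7.91 in C8 cells. All H10 arrays were below all C8 arrays, by 0.01 at the nearest, and the difference of -0.14 did not pass (standard error 0.07, adjusted p = 0.546).

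Syt6, which acts in the acrosome reaction of sperm, had log2 values of 8.35, 8.40 and 8.26 in H10 cells, against 8.08, 8.14 and 8.25 in C8 cells. Its H10 arrays all lay above its C8 arrays, again by 0.01 at the nearest. The difference was 0.18 (standard error 0.07), with an unadjusted p = 0.0456 and an adjusted p = 0.408 from limma. Syt8, a synaptotagmin of sperm and epithelia, had 7.73, 7.73 and 7.72 in H10 cells, against 7.69, 7.73 and 7.99 in C8 cells. C8 replicate 3 was the high array, and the difference was -0.08 (standard error 0.09, adjusted p = 0.861).

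The remaining members, Syt4, Syt11 and Syt12, are synaptotagmins whose C2 domains bind calcium weakly or not at all. Syt11, which restrains phagocytosis and cytokine release in mouse macrophages, had log2 values of 8.31, 8.10 and 7.99 in H10 cells, against 8.75, 8.08 and 8.09 in C8 cells. Replicate 1 was the highest array in each line, and C8 replicate 1 stood well above the other two C8 arrays. Syt11 had the widest spread of the 10 genes, with a pooled SD of 0.29 against a median of 0.10 over all genes, and 98.6% of genes had an SD no larger. Its difference was -0.17 (standard error 0.20, adjusted p = 0.85 from limma) with a 95% interval of -0.64 to 0.29. Without C8 replicate 1 the difference was 0.05 (adjusted p = 0.871). Syt4 had values of 7.51 to 7.61 in H10 cells and 7.36 to 7.54 in C8 cells, and Syt12 had 6.46 to 6.64 in H10 cells and 6.53 to 6.56 in C8 cells. Both overlapped between the lines, with differences of 0.07 (adjusted p = 0.85) and 0.01 (adjusted p = 0.977).

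Of the 9 synaptotagmins other than Syt5, 0 were called in either direction by limma, while 1.85% of all genes were called higher in H10 cells and 1.04% lower. At an unadjusted p under 0.05, 1 of the 9 was higher, Syt6, and 0 were lower, while 6.1% of all genes were higher and 7.67% lower. Syt5 is among the genes called higher, and since the family was taken up for it, this is no result about the family. All H10 arrays lay above all C8 arrays for 2 members, Syt5 and Syt6, and below them for 1, Syt3. Over all genes the shares were 7.74% above and 12.7% below. The median difference of the 10 was 0.00, beside -0.03 over all genes. The 9 members other than Syt5 differed by -0.17 to 0.18, a range that held 82.2% of all genes.

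The 7 other synaptotagmins on the arrays, Syt2, Syt10, Syt13, Syt14, Syt15, Syt16 and Syt17, were not among the 10 and form a further look at the family. Their differences were -0.14 to 0.01, with a median of -0.02. In limma 0 of the 7 were called in either direction, against 1.85% of all genes called higher and 1.04% lower. Likewise 0 had an unadjusted p under 0.05, against 6.1% higher and 7.67% lower. Syt2, the close relative of Syt1, had log2 values of 7.63, 7.84 and 7.68 in H10 cells, against 7.59, 7.78 and 7.74 in C8 cells, a difference of 0.01 (adjusted p = 0.981). The largest difference among the 7 was that of Syt14, with 5.99, 5.93 and 6.04 in H10 cells, against 6.08, 6.22 and 6.09 in C8 cells. Its H10 arrays lay below its C8 arrays, by -0.14 in the means, and it did not pass (adjusted p = 0.501). Among all 17 synaptotagmins, the 95% intervals of the 16 other than Syt5 reached from -0.64 to 0.36.

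**Figure D2:**
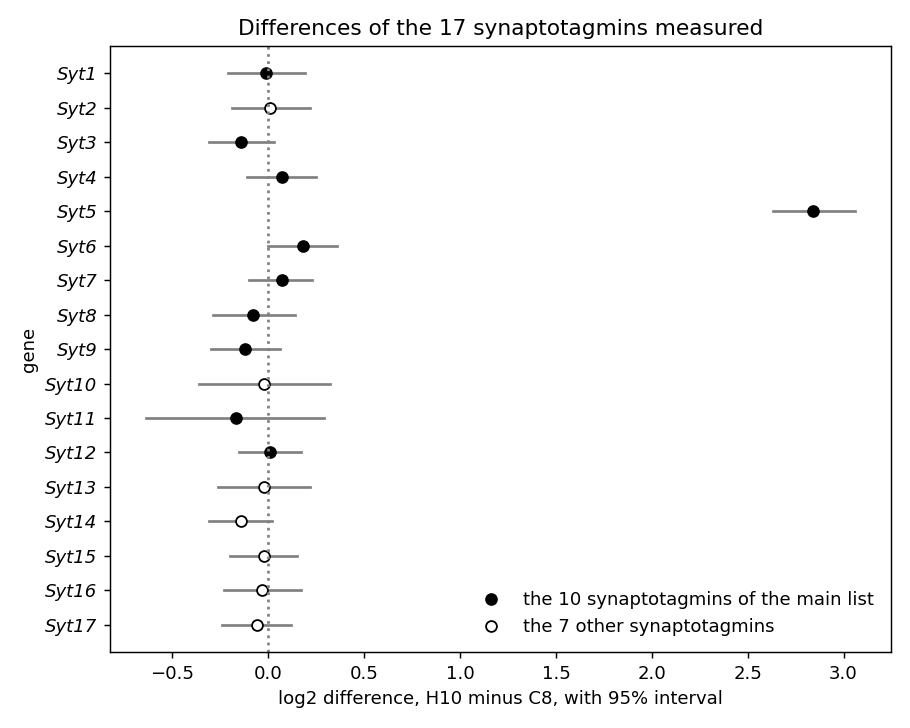
Log2 difference between H10 and C8 cells for the 17 synaptotagmins measured, with the 95% interval from limma, which is not adjusted for the number of genes. Syt5 lies at 2.84, and the 16 others lie between -0.17 and 0.18.

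Single arrays were often high or low for several members at once. Of the 9 members other than Syt5, 7 had their lowest H10 value on H10 replicate 3, as had 32.8% of all genes and 5 of the 12 neuronal markers. Likewise 7 of the 9 had their highest C8 value on C8 replicate 3, as had 37.0% of all genes and 8 of the 12 neuronal markers. The lowest C8 value was on C8 replicate 1 for 7 of the 9, for 36.1% of all genes and for 7 of the 12 neuronal markers. These genes were read from the same 6 arrays, and what the arrays share was not tested.

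The genes with the profiles nearest to that of Syt5 were sought over the 6 arrays, with the root mean square difference between profiles centred on their means as the measure. The nearest 5 were Serpinb9b (0.0895), a protease inhibitor gene, H2-T24 (0.174), an MHC class I gene, Epsti1 (0.179) and Xaf1 (0.229), which interferons induce, and Prdm1 (0.243), a repressor that promotes OCG. Serpinb9b had log2 values of 10.50, 10.22 and 10.39 in H10 cells, against 7.32, 7.49 and 7.56 in C8 cells. In H2-T24, Epsti1 and Xaf1, H10 replicate 1 was the lowest H10 array, as it was not in Syt5 and Serpinb9b. The Prdm1 values were 9.67, 9.54 and 10.12 in H10 cells, against 7.27, 7.04 and 7.12 in C8 cells. With 6 arrays in 2 lines, such likeness rests mostly on the step between the lines.

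**Figure D3:**
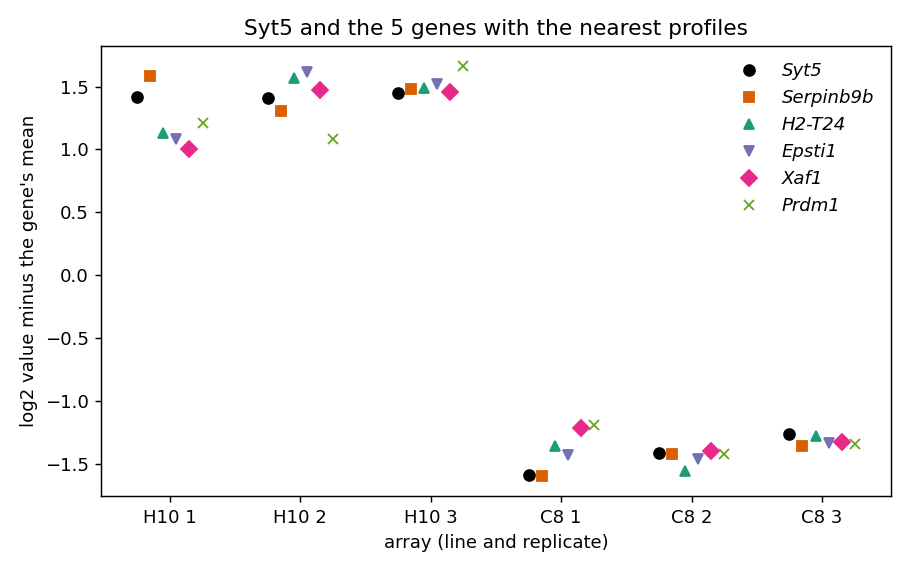
Log2 values of Syt5 (black) and of the 5 genes with the nearest profiles, each minus its own mean over the 6 arrays, by line and replicate. Serpinb9b lies nearest, with a root mean square difference of 0.0895, and Syt5 holds nearly 1 level on the H10 arrays.

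For Syt7 the 5 nearest profiles were those of Kl, Dab2ip, Meltf, 1700057G04Rik and Ang6, at 0.00957 to 0.0216. Their differences between the lines were 0.04 to 0.08. Kl, which encodes klotho, a protein of the kidney, had log2 values of 6.75, 6.65 and 6.60 in H10 cells, against 6.54, 6.62 and 6.67 in C8 cells.

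On GRCm38.p6, Syt5 is on chromosome 7 with Syt3, Syt8 and Syt9. The 3 nearest measured genes on each side of Syt5, in the order of their starts, were Tnnt1, Tnni3 and Dnaaf3 before it and Ptprh, Tmem86b and Ppp6r1 after it. Tnnt1 and Tnni3 encode troponins of muscle. Their neighbour Dnaaf3, an assembly factor of ciliary dynein, had log2 values of 8.77, 8.65 and 8.72 in H10 cells, against 8.91, 8.50 and 8.56 in C8 cells. Ppp6r1, a regulatory subunit of protein phosphatase 6, had 11.66, 11.67 and 11.59 in H10 cells, against 11.73, 11.58 and 11.62 in C8 cells. All 6 neighbours overlapped between the lines, with differences of -0.08 to 0.06 and adjusted p-values of 0.782 to 0.992 from limma. The difference seen in Syt5 was not seen in its neighbours. On chromosome 19, the 6 genes around Syt7 differed by -0.16 to 0.04 (adjusted p = 0.559 to 0.984).

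Synaptotagmins work on SNARE proteins, which pull a vesicle and its target membrane together, and with proteins that assemble SNAREs, Rab GTPases that bring vesicles to their site and the exocyst, which tethers them. In lists of these genes and of relatives of the synaptotagmins, 113 genes were named, of which 107 were measured. By limma, 1 was called higher in H10 cells, 1 lower and 105 not, against 1.85% and 1.04% of all genes. Their median difference was -0.02, beside -0.03 over all genes. At an unadjusted p under 0.05, 11 were higher and 8 lower, against 6.1% and 7.67% of all genes. The counts of the single lists that follow are to be read beside the same shares of all genes.

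Of 15 relatives with C2 domains, such as the synaptotagmin-like proteins Sytl1 to Sytl5 and the extended synaptotagmins, 0 were called by limma in either direction, with differences of -0.23 to 0.20 (1 had an unadjusted p under 0.05 upward and 0 downward). That 1 was Esyt2, a tether between the endoplasmic reticulum and the plasma membrane, with a difference of 0.20 (adjusted p = 0.342). Of 8 vesicle SNAREs, 0 were called by limma, with 1 upward and 0 downward at an unadjusted p under 0.05. Vamp7, the SNARE of lysosomes, had log2 values of 11.80, 11.84 and 11.83 in H10 cells, against 11.78, 11.87 and 11.77 in C8 cells, a difference of 0.02 (adjusted p = 0.965). Vamp8, a SNARE of endosomes and secretory granules, had 11.37 to 11.39 in H10 cells and 11.16 to 11.23 in C8 cells, a difference of 0.18 (adjusted p = 0.255). Of 20 target membrane SNAREs, 0 were called by limma, with 3 upward and 1 downward at an unadjusted p under 0.05. Snap23, the partner of syntaxins at the plasma membrane outside neurons, had 12.68, 12.81 and 12.85 in H10 cells, against 12.71, 12.65 and 12.73 in C8 cells, a difference of 0.08 (adjusted p = 0.768). Vti1b, a SNARE of late endosomes, had 11.50 to 11.60 in H10 cells and 10.93 to 11.23 in C8 cells, a difference of 0.49 (adjusted p = 0.0529).

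Of 24 genes of SNARE assembly and priming, Cplx2 was lower in H10 cells and 0 were higher in limma. At an unadjusted p under 0.05, 1 was upward and 3 were downward, Cplx2 included. Cplx2 encodes complexin 2, which binds assembled SNAREs and works with synaptotagmins. It had log2 values of 7.39, 7.59 and 7.46 in H10 cells, against 7.93, 7.95 and 7.93 in C8 cells. These lay under the medians of the H10 arrays (7.69 to 7.72) and a little above those of the C8 arrays (7.65 to 7.74). The groups did not overlap, with a difference of -0.46 (standard error 0.07, adjusted p = 0.0294 from limma). Its call was lost without any 1 of the 6 arrays (adjusted p = 0.055 to 0.15) and with the replicate number as a block (adjusted p = 0.0893). Stxbp2, which encodes Munc18-2, the partner of syntaxins in blood cells, had a difference of -0.06 (adjusted p = 0.88).

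Of 24 Rab GTPases and effectors, Rab32 was higher in H10 cells and 0 were lower in limma. At an unadjusted p under 0.05, 4 were upward, Rab32 included, and 3 downward. Rab32 acts in the making of lysosome-related organelles. It had log2 values of 9.80, 9.78 and 9.62 in H10 cells, against 8.92, 9.21 and 9.19 in C8 cells. The groups did not overlap, with a difference of 0.63 (standard error 0.10, adjusted p = 0.0343 from limma). Without any 1 of H10 replicate 1, 2 or 3 or C8 replicate 2 or 3 it did not pass (adjusted p = 0.0824 to 0.141), nor with the replicate number as a block (adjusted p = 0.104) or after quantile normalization (adjusted p = 0.0552). Rab27a, a Rab of lysosome-related organelles that binds synaptotagmin-like proteins, had 9.25, 9.01 and 8.95 in H10 cells, against 9.88, 9.44 and 9.50 in C8 cells, a difference of -0.54 (adjusted p = 0.157). Plekhm1, an adaptor of lysosomes needed for bone resorption, had 10.85, 11.28 and 11.10 in H10 cells, against 10.43, 10.53 and 10.62 in C8 cells, a difference of 0.55 (adjusted p = 0.0892). Of 9 exocyst subunits, 0 were called by limma, with 1 upward and 1 downward at an unadjusted p under 0.05. The largest difference was 0.73 in Exoc6b (adjusted p = 0.055).

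**Figure D4:**
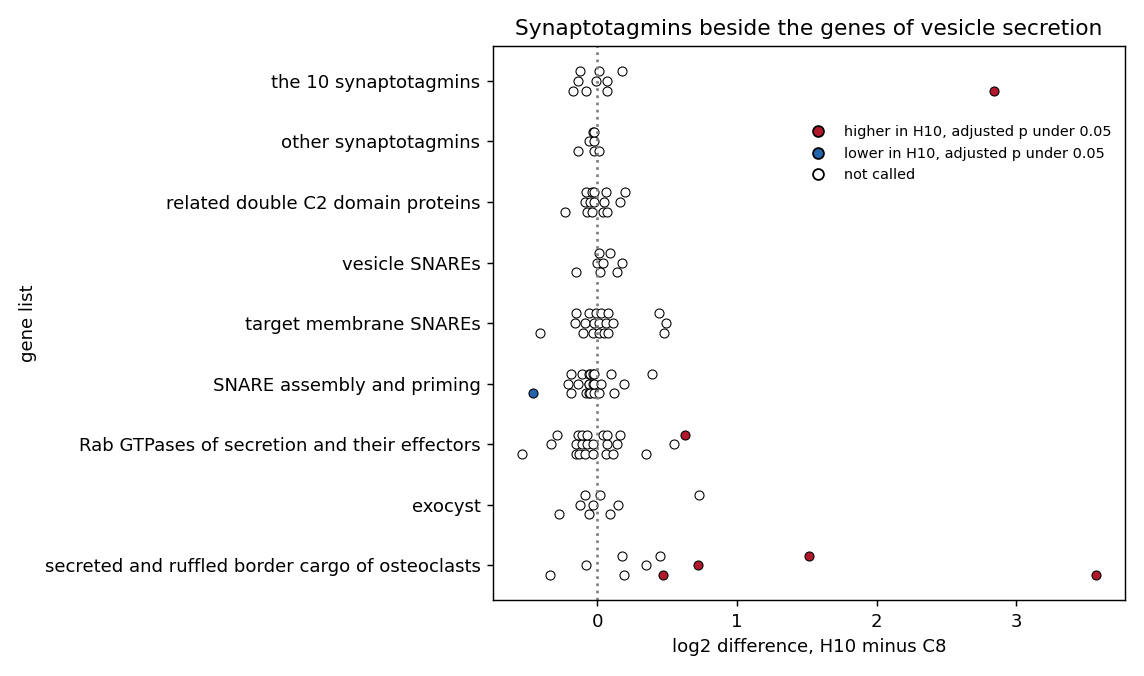
Log2 difference between H10 and C8 cells of the 10 synaptotagmins, of 7 lists of related genes and of the vesicle cargo of osteoclasts, 1 point per gene, spread vertically only to keep points apart. Syt5 at 2.84 lies far from the genes of the secretion lists, which lie between -0.54 and 0.73.

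The cargo that osteoclasts secrete from lysosomes, or place in the membrane facing bone, was listed apart from the machinery. Of 10 such genes, 4 were called higher in H10 cells and 0 lower by limma (6 and 0 at an unadjusted p under 0.05). Their differences had a median of 0.40 and ran from -0.34 in Mmp9 (adjusted p = 0.534 from limma) to 3.57 in Ctsk. Over all genes, 1.85% were called higher and 1.04% lower (6.1% and 7.67% unadjusted). The study named Ctsk from these arrays, and the list was chosen with that known, so its count is not independent evidence. Ctsk, Acp5 and Atp6v0d2 were also among the osteoclast markers called higher, so the counts of both lists overlap. The differences were 0.47 for Acp5 (adjusted p = 0.033 from limma) and 1.52 for Atp6v0d2 (adjusted p = 0.0103). Cathepsin K (Ctsk), the collagen-degrading protease, had log2 values of 12.56, 12.60 and 12.91 in H10 cells, against 9.10, 9 and 9.27 in C8 cells. Clcn7, the chloride exchanger of the ruffled border, had 10.85, 11.18 and 11.28 in H10 cells, against 10.41, 10.36 and 10.38 in C8 cells. Neither gene overlapped between the lines, and their differences were 3.57 (adjusted p = 0.000138) and 0.72 (adjusted p = 0.0339). The call of Clcn7 was lost without H10 replicate 2 or 3 or any C8 array (adjusted p = 0.0878 to 0.138) and with the replicate number as a block (adjusted p = 0.086). The count of 4 was 3 without H10 replicate 1 or C8 replicate 1, 2 without H10 replicate 2 or C8 replicate 2 and 1, Ctsk, without H10 replicate 3 or C8 replicate 3. It was 2 with the replicate number as a block or without the replicate 1 arrays of both lines, 1 at a threshold of 0.01, and 3 to 6 under the other scalings, filter, averaging, prior and adjustment. Lamp1, a membrane protein of lysosomes, had a difference of -0.08 (adjusted p = 0.791).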

How the data were processed

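RNA of H10 and C8 cells was hybridised to Affymetrix Mouse Gene 1.0 ST arrays, 3 per line. The authors normalized the raw data with RMA and deposited log2 values. Affymetrix Expression Console is the tool in the submitters' processing notes, with no version stated. The values ran from 2.91 to 14.7 over 35545 features, with 0 missing. Array medians were 7.69 to 7.72 for H10 and 7.65 to 7.74 for C8. No 2 arrays were alike (1.74% to 3.87% of features identical).

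Of the features, 21781 carried 1 gene symbol, 1621 several and 12143 none. Those with 1 symbol stood for 19930 genes, each by its brightest feature. Entrez identifiers of 21690 features matched the GRCm38.p6 gene table, which served for names and gene order only. Nothing was filtered out. The lines were compared over all features by the method of the study, limma (version 3.58.1, R 4.3.3, lmFit and eBayes, two-sided, 4 residual and 2.57 prior degrees of freedom). P-values were adjusted by Benjamini-Hochberg over the 35545 features, with a threshold of 0.05. The number of arrays limits the precision. The fit was tested on simulated data. Exact permutation of 3 against 3 arrays cannot reach this threshold.

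The genes and lists were chosen with earlier results of these arrays known. Named are the 10 synaptotagmins, others measured, the called genes of each list with up to 2 chief members not called, the 5 nearest profiles and the neighbours of Syt5 and Syt7. Esyt2, Syt14, Exoc6b, Mmp9 and the markers Cd68, Csf1r, Fcgr1, Adgre1, Calcr, Itgb3, Nfatc1 and Tnfrsf11a were picked after their values were seen. The alternatives left out each array, fitted the replicate number as a block, applied quantile normalization or median centring, kept the 17939 features brighter than the table median on 3 or more arrays, averaged the features of a gene, used a trended and robust prior, adjusted over 1 feature per gene, or set the threshold at 0.01. Leaving out both replicate 1 arrays was added after seeing the data. Matplotlib 3.10.9 under Python 3.11.15 drew the figures.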

Additional observations from a re-analysis of the deposited data

How the results depend on the processing

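Of the 9 synaptotagmins other than Syt5, 0 were called in either direction under the 15 alternatives run (the filter on dim features tests 5 of them). Differences of members that were not called changed sign in some: leaving out 1 array gave -0.07 to 0.05 for Syt1, -0.13 to 0.02 for Syt8, -0.29 to 0.05 for Syt11 and -0.03 to 0.06 for Syt12. Without the replicate 1 arrays of both lines, Syt4 had -0.02, Syt7 -0.01 and Syt12 -0.03. The filter leaves out Syt1, Syt4, Syt9 and Syt12. Leaving out 1 array gave 2.76 to 2.92 for Syt5, which passes the filter through its H10 arrays alone.

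Of the 107 genes of the secretion machinery, 1 was called higher and 1 lower. Leaving out 1 array gave 0 to 4 higher and 0 lower, with 4 higher without C8 replicate 1. The counts, higher then lower, were 2 and 0 without the replicate 1 arrays of both lines, 2 and 1 after quantile normalization, 5 and 3 with dim features filtered out and 6 and 4 with all features of a gene averaged, which both test fewer features, 3 and 2 with a trend and robust prior, 3 and 1 with adjustment over 1 feature per gene, and 0 and 0 at a threshold of 0.01. With the replicate number as a block they were 1 and 0, the 1 being Exoc6b (adjusted p = 0.0385). Same-numbered arrays of the lines had deviations from their group means that correlated at 0.17, 0.00 and -0.12. Arrays with different numbers gave -0.18 to 0.23. With 3 arrays per line, these values cannot decide if same-numbered arrays share more than a number. The block changed no call of a synaptotagmin.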
